A study of Mus musculus with 9 samples.

Results

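The complement genes examined here were 35 mouse genes that encode complement components, their regulators and their receptors, taken by name from a table of 24341 gene names measured in the liver. They were 7 genes of the classical pathway, 4 of the lectin pathway, 4 of the alternative pathway, 7 of the terminal pathway, 8 regulators and 5 receptors. The livers came from 9 wild-type mice labelled C57BL/6 (C57BL/6J in the study's methods), and 3′ RNA sequencing was performed 48 hours (2 days) after treatment. Such sequencing reads only the end of each polyadenylated transcript. An agonist antibody against CD40 (anti-CD40), a receptor on antigen-presenting cells, had been given to 3 mice (mice 2, 5 and 9), and the other 6 mice were controls labelled PBS (mice 3, 4, 7, 8, 11 and 12). All mice carried the same genotype, and no other agent was named for them in the labels. The labels give neither age nor sex, and do not say whether the mice shared cages or treatment days. The study's methods state that anti-CD40-treated mice without a fall in blood B cells were left out, so the treated group holds responders by that measure. The comparison asked how anti-CD40 changed the complement RNA of the liver.

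Complement is a cascade of plasma proteins, most of which are made by hepatocytes. The classical pathway starts when C1q binds antibody, the lectin pathway when mannose-binding lectins bind sugars, and the alternative pathway amplifies deposited C3. All of them cleave C3 and then C5, releasing small fragments that call in leukocytes through receptors, while C5b and the later components assemble into a pore in the target membrane. Regulators in plasma and on cells stop the cascade on host surfaces. C1q differs from the other plasma components in coming mainly from macrophages, in the liver from the resident Kupffer cells, and most of the receptors are carried by leukocytes.

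Values are FPKM as deposited, which divide the fragments of a gene by the length of its transcript and by the size of the library, with a floor of 0.01. Because 3′ reads do not scale with transcript length, FPKM was compared between mice for a gene. Ratios of 2 genes within a mouse were compared only between the groups, since their size does not give relative abundance. Marker lists are also given as summed FPKM, to which 1 gene can add most. In anti-CD40 mouse 2, Dcn was 213 of 244 FPKM of the stellate cell list and Cela1 27.0 of 27.4 of the pancreatic acinar list. Between 14684 and 15545 genes lay above the floor in each mouse, and the relative depth of the libraries, recovered from the steps of low values, ran from 0.870 to 1.13. Correlations of log2 values between mice were 0.953 to 0.980 within a group and 0.897 to 0.921 between groups. The 3 serum amyloid A genes Saa1, Saa2 and Saa3 took 25.4 to 25.9% of summed FPKM after anti-CD40 and 0.0449 to 0.380% in controls. The tissue carried its hepatocyte markers in every mouse, but the summed FPKM of 7 markers measured was 9245 to 10561 after anti-CD40 and 14671 to 27253 in controls, with 6 of the 7 lower and Fgb, a fibrinogen chain, higher (Apoa1 was no longer called without anti-CD40 mouse 2 or 9, with limma adjusted p values up to 0.115). The endothelial list summed to 76.5 to 84.9 after anti-CD40 and 89.5 to 114 in controls, with 2 of 6 genes higher and 3 lower (Pecam1 and Kdr were not called without 1 or another anti-CD40 mouse), and the stellate cell list to 213 to 244 and 207 to 317, with 2 of 6 higher and 2 lower. Anti-CD40 mouse 5 also held RNA of pancreatic acinar cells (list sum of 657, against 27.4 and 31.4 in the other anti-CD40 mice and 70.2 to 190 in controls). Leaving that mouse out changed the call of 2 complement members, C3ar1 and C8b. The same 2 calls changed when anti-CD40 mouse 2 was left out instead. In bulk tissue, fewer cells of a type and less RNA per cell cannot be told apart.

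Of the 35 complement genes, 34 had a mean of at least 0.1 FPKM and were tested with limma on log2(FPKM + 0.1), with Benjamini-Hochberg adjustment over all 13807 genes tested. Anti-CD40 raised 15 of them (44.1%), where 23.5% of all genes tested were higher, and lowered 9 (26.5%), where 21.7% of all genes were lower and 45.1% were called in either direction. Another 10 were not called. The median log2 fold change was 0.26 over the complement genes and 0.0056 over all genes tested. A call with a change of at least 2-fold was made for 9 genes upward and 7 downward, against 13.7% and 9.08% of all genes. For all 24 called genes, the values of the 3 anti-CD40 mice did not overlap those of the 6 controls, and the exact 2-sided permutation p was 0.0238. Non-overlap was found in 22.7% of all genes upward and 19.6% downward. The remaining gene, C7, which encodes a pore component, had 0 or 1 read in every mouse, for 2 reads in the anti-CD40 livers and 3 in the controls, and a difference was not detectable at this depth. The direction differed by role, as the plot of fold changes by role shows. All 5 receptors rose, 3 of 4 alternative pathway genes rose and none fell, and the terminal and lectin pathways held 3 and 2 genes that fell and none that rose in this fit.

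**Figure D1:**
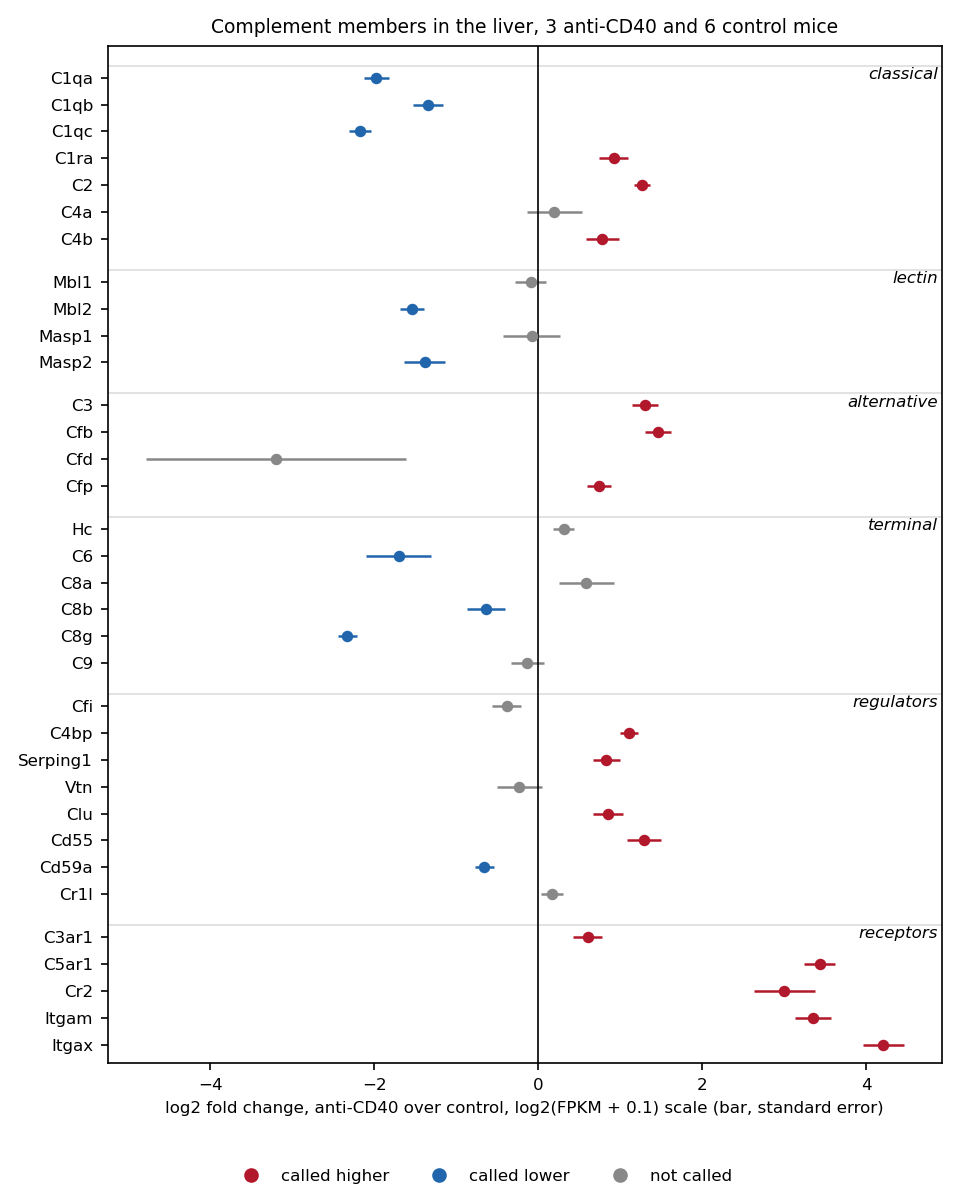
The log2 fold change of each of the 34 complement genes tested (horizontal axis, anti-CD40 over control on the log2(FPKM + 0.1) scale), grouped by role, with bars for the standard error and colour for the call. Receptors reach 4.21 on the right, C8g and C1qc lie at -2.32 and -2.17, and Cfd has the widest bar, with a standard error of 1.59.

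The regulatory sequence in front of 4 plasma component genes is shown because their RNA moved in opposite directions in the same livers: C3 and C4bp rose, and Mbl2 and Masp2 fell. Each line gives the 250 bases upstream of the RefSeq transcription start, 5′ to 3′ on the strand of the gene, in build GRCm38.p6 (mm10), and capitals mark a match to a searched motif. The windows are chr17:57228137-57228386 on the minus strand for C3, chr1:130661619-130661868 on the minus strand for C4bp, chr4:148602294-148602543 on the plus strand for Masp2 and chr19:30232678-30232927 on the plus strand for Mbl2.
C3: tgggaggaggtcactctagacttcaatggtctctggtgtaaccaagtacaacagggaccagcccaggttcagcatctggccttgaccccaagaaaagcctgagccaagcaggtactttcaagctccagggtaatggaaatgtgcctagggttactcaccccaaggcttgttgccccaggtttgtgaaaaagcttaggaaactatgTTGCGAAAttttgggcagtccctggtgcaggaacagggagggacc
C4bp: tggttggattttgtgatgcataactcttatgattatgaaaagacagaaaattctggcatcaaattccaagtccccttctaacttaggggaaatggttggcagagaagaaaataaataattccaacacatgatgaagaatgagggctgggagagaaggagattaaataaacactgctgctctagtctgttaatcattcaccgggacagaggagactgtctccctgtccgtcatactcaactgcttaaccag
Masp2: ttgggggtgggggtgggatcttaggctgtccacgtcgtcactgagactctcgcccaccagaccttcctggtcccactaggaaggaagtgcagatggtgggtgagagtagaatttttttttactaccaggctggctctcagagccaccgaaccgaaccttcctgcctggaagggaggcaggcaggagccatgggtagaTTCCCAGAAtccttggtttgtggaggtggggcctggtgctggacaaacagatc
Mbl2: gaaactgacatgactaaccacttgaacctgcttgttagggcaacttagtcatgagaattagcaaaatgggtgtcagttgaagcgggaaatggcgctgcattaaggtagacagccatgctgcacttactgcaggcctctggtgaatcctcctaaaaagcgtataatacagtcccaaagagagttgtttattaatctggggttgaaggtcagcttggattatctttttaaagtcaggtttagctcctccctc

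Motifs of 4 factor families of inflammation were searched on both strands in the upstream windows of 26 of the 35 genes, 27 windows in all. The C/EBP motif TTNNGCAA was found in C3, at -45 to -38 from the start and on the opposite strand, and in C9, and 9.56% of 32851 mouse promoters held it. The STAT motif TTCNNNGAA was found in Masp2, at -53 to -45, and in C7 and C8a, and 7.02% of all promoters held it. The NF-kB motif, GGG and TTTCC with any 2 bases between, stood only in C3ar1 among the complement windows (1.41% of all promoters), and the IRF motif, GAAA repeated after any 2 bases, only in Cd59a (2.98%). C4bp and Mbl2 held none of the 4 motifs. The 3 genes with a STAT match thus had different calls: Masp2 fell, C8a was not called and C7 was not tested. A match describes letters in a window and was not tested for binding.

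The classical pathway split into falling C1q genes and rising protease and C2/C4 genes, with 3 of 7 lower, 3 higher and C4a not called. C1q, the recognition molecule, is built from chains encoded by the neighbouring genes C1qa (chr4:136895916-136898844), C1qb (chr4:136880145-136886177) and C1qc (chr4:136889802-136892914). C1qc was 12.5, 12.5 and 12.3 FPKM in anti-CD40 mice 2, 5 and 9, and 43.0 to 64.3 in controls, with a median of 58.4. C1qa was 50.2, 53.0 and 42.5 FPKM after anti-CD40, and 151 to 250 in controls, with a median of 189. C1qb was 11.9, 10.1 and 11.9 FPKM against 20.5 to 34.5, with a median of 31.9. The treated mice lay below every control for all 3 chains. The means differed 4.56-fold for C1qc (12.4 ± 0.0893 against 56.7 ± 7.86, SD, n = 3 and 6), 3.97-fold for C1qa and 2.59-fold for C1qb. The limma log2 fold changes were -2.17 (SE 0.13, adjusted p = 1.42e-06), -1.98 (SE 0.15, adjusted p = 5.09e-06) and -1.34 (SE 0.18, adjusted p = 1.72e-04). The ratio of C1qa to C1qc within a mouse was 3.45 to 4.24 after anti-CD40 and 2.79 to 3.97 in controls, a difference of 0.19 on the log2 scale with an exact permutation p of 0.167.

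Markers of Kupffer cells moved with C1q. The summed FPKM of 8 Kupffer cell markers was 40.9 to 54.1 after anti-CD40 and 290 to 461 in controls, and 7 of the 8 fell and Xlr4c rose. Clec4f, a lectin that marks Kupffer cells, was at most 0.218 FPKM in the treated mice and 15.3 to 24.8 in controls. The list of 8 monocyte and macrophage markers went the other way, from 43.1 to 77.9 in controls to 321 to 440 after anti-CD40, with 6 of 8 higher and none lower. The part of either cell type in the C1q values was not tested. The plot of C1q beside the macrophage lists shows both.

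**Figure D2:**
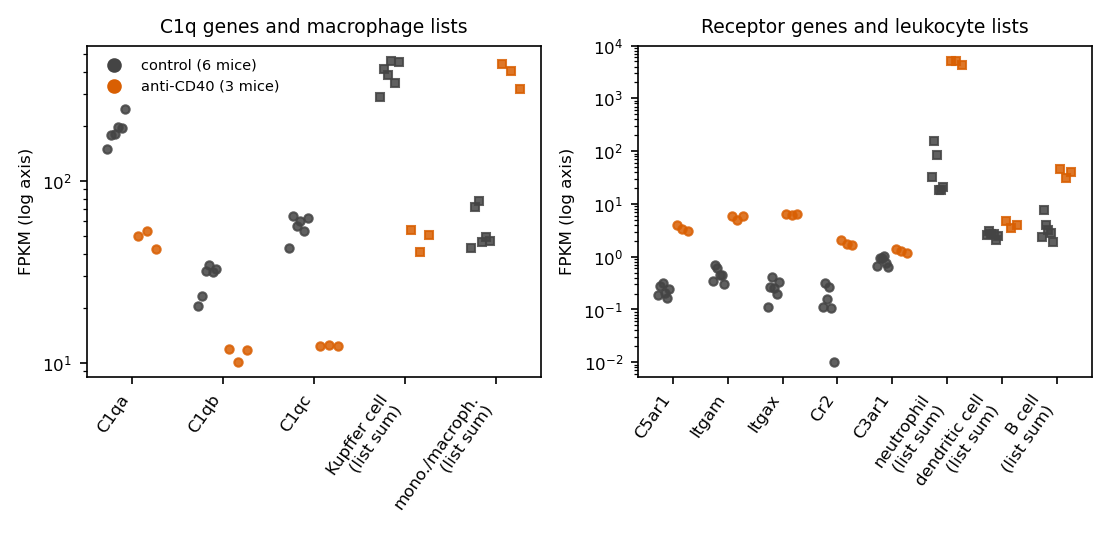
FPKM in each mouse on a log axis, with circles for genes, squares for the summed FPKM of a marker list, grey for 6 control mice and orange for 3 anti-CD40 mice. On the left the 3 C1q genes and the Kupffer cell list are lower after anti-CD40 and the monocyte and macrophage list is higher. On the right 5 receptor genes stand beside neutrophil, dendritic cell and B cell lists, all higher after anti-CD40.

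Downstream of C1q the direction turned. C1ra, a gene for the protease C1r of the C1 complex, was 107, 102 and 117 FPKM after anti-CD40, and 42.0 to 72.8 in controls, with a median of 60.3. C2 (chr17:34862602-34882100), the protease that joins C4b to cleave C3, was 46.3, 52.7 and 50.5 FPKM against 18.6 to 22.1, with a median of 21.0. C4b, a gene of C4, the other part of that convertase, was 235, 235 and 272 FPKM against 113 to 220, with a median of 134. Every treated mouse exceeded every control for the 3 genes, although control mouse 12, at 220 FPKM, came close for C4b. The log2 fold changes in limma were 1.27 for C2 (SE 0.10, adjusted p = 5.17e-06), 0.92 for C1ra (SE 0.17, adjusted p = 0.00151) and 0.78 for C4b (SE 0.20, adjusted p = 0.00896). The second C4 gene, C4a, stayed at 1.21 to 2.85 FPKM after anti-CD40 and 1.12 to 3.15 in controls, and did not pass the test (0.20, SE 0.34, adjusted p = 0.658). The last 400 transcript bases of C4a and C4b are 98.2% identical, so the split of reads between them is uncertain. The within-mouse difference between C4a and C4b did not pass the exact permutation test (-0.59 on the log2 scale, p = 0.119). C2 also lies beside Cfb and shares the read-through gene Gm20547 with it on the same strand.

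The lectin pathway held 2 genes that fell and 2 that were not called. The liver makes a pair of mannose-binding lectins, and they parted. Mbl2 (chr19:30232957-30239682), which encodes MBL-C, was 615, 528 and 540 FPKM in mice 2, 5 and 9, and 1406 to 2039 in controls, with a median of 1584. Mbl1, which encodes MBL-A, was 357, 409 and 440 FPKM against 286 to 555, with a median of 450. Mbl2 lay below every control, 2.92-fold by the means (561 ± 47.2 against 1640 ± 250, SD, n = 3 and 6), and Mbl1 overlapped throughout. The limma log2 fold change of Mbl2 was -1.54 (SE 0.14, adjusted p = 1.64e-05), and that of Mbl1 was -0.09 (SE 0.19, adjusted p = 0.715), with a positive value under quantile normalization (0.35) and under rescaling without Saa1 to Saa3 (0.27). Within a mouse, the ratio of Mbl1 to Mbl2 was 0.581 to 0.815 after anti-CD40 and 0.203 to 0.316 in controls, without overlap. That difference was 1.45 on the log2 scale (exact 2-sided permutation p = 0.0238, the smallest the 84 splits of the mice can give, and 0.0286 adjusted over 12 pairs). For Mbl1, the deposited position stops at chr14:41158959, short of its 3′ end in the GENCODE annotation (41159601). Whether 3′ reads of Mbl1 were missed there was not tested.

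The lectin proteases showed a like division. Masp2 (chr4:148602544-148626996), which cleaves C4 and C2 once a lectin has bound, was 15.8, 17.2 and 24.5 FPKM against 33.7 to 72.3, with a median of 46.9. Its log2 fold change was -1.38 (limma, SE 0.25, adjusted p = 0.00124), and the groups did not overlap. Masp1, the protease that activates Masp2, was low, at 0.319, 0.678 and 0.404 FPKM against 0.266 to 0.871, and did not pass the test (-0.08, SE 0.35, adjusted p = 0.877). The sign of the Masp1 value turned without anti-CD40 mouse 2 (0.12), without control mouse 8 (0.02) or 12 (0.07), and with rescaling without Saa1 to Saa3 (0.23). The 2 proteases differed within mice by 1.31 on the log2 scale (exact permutation p = 0.0238, adjusted 0.0286). In the deposited table Masp2 has the same position as Tardbp, which overlaps it on the opposite strand, so the position does not separate their reads. The deposited position of Masp1 stops at chr16:23451785, short of its 3′ end in the GENCODE annotation (23449417). Whether 3′ reads were missed there was not tested.

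The alternative pathway rose: C3, Cfb and Cfp were higher, and Cfd was not called. C3 (chr17:57203967-57228136), the protein on which all the pathways meet, was 3125, 2587 and 3260 FPKM in mice 2, 5 and 9, and 964 to 1435 in controls, with a median of 1254. Cfb (chr17:34856374-34862514), factor B, the protease subunit of the C3 convertase that amplifies deposition, was 2229, 1891 and 2473 FPKM against 624.6 to 942, with a median of 835. Cfp, properdin, the stabilizer of that convertase, was 31.8, 24.8 and 26.4 FPKM against 13.5 to 20.1, with a median of 16.5. No treated mouse overlapped a control for any of them. The means rose 2.45-fold for C3 (2991 ± 356 against 1219 ± 186, SD, n = 3 and 6), 2.74-fold for Cfb and 1.67-fold for Cfp. The limma log2 fold changes were 1.30 (SE 0.16, adjusted p = 8.28e-05), 1.46 (SE 0.16, adjusted p = 4.03e-05) and 0.74 (SE 0.15, adjusted p = 0.00249). C3 and Cfb moved nearly together. The ratio of C3 to Cfb was 1.32 to 1.402 after anti-CD40 and 1.41 to 1.68 in controls, a small difference of -0.16 on the log2 scale that passed the exact permutation test (p = 0.0238, adjusted 0.0286). Properdin is made mainly by leukocytes, whose marker lists also rose. Their part in its value was not tested.

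Cfd, factor D, which cleaves factor B and is made mainly by fat, varied most among controls. It was 4.90, 1.67 and 1.65 FPKM after anti-CD40, and 5.55, 277, 302, 19.8, 13.0 and 1.08 in control mice 3, 4, 7, 8, 11 and 12. The groups overlapped, since control mouse 12 lay below all the treated mice, and the difference of -3.20 had a standard error of 1.59 (limma, adjusted p = 0.126). Without control mouse 12, the value was -4.06 and passed the test (adjusted p = 0.0303). Some fat cell markers were highest in the same 2 control mice. Adipoq, the fat hormone adiponectin, was 26.3 FPKM in mouse 4 and 34.96 in mouse 7, 0.270 to 3.09 in the other controls and 0.552 to 1.06 after anti-CD40. The summed FPKM of 8 fat cell markers, a list added after the Cfd values were seen, was 1123 and 943 in mice 4 and 7, 287 to 583 in the other controls and 386 to 550 after anti-CD40. Fabp4 and Car3 made up most of the sum, at 846 and 219 FPKM in mouse 4 and 164 and 413 FPKM in control mouse 3. Plin1 and Retn were also highest in mice 4 and 7, but Car3 and Lipe were not, and Fabp4 and Cidec were higher in the treated mice than in the other controls. Lep was at or near the floor, and 1 of the 8 genes, Car3, was lower after anti-CD40. Without control mice 4 and 7, also a choice made after seeing the data, the Cfd difference was -1.37 with an exact permutation p of 0.343 over 35 splits. The deposited position of Cfd, chr10:79697305-80369637, is a long interval that 48 other gene names share.

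In the terminal pathway, 3 of 6 genes tested fell, none rose and 3 were not called. Among the 3, Hc and C8a were called higher under 3 alternatives each. C8 is a complex of an alpha, a beta and a gamma chain, and the chains responded unequally. C8g (chr2:25498650-25505470), the gamma chain, was 156, 173 and 169 FPKM in mice 2, 5 and 9, and 682 to 901 in controls, with a median of 856. C8b, the beta chain, was 57.3, 65.9 and 61.7 FPKM against 66.0 to 152, with a median of 97.8. C8a, the alpha chain, was 89.3, 101 and 120 FPKM against 42.8 to 147, with a median of 65.8. C8g thus fell 5.03-fold by the means (166 ± 8.82 against 834 ± 80.4, SD, n = 3 and 6), C8b parted from controls by under 0.1 FPKM, and C8a overlapped only with control mouse 12. In limma, the log2 fold change of C8g was -2.32 (SE 0.11, adjusted p = 4.06e-07), that of C8b was -0.64 (SE 0.23, adjusted p = 0.0466) and that of C8a was 0.59 (SE 0.34, adjusted p = 0.182). The call for C8b was lost without any of anti-CD40 mice 2, 5 and 9 (adjusted p = 0.143, 0.0895 and 0.110) and without control mice 4, 8 or 11 (adjusted p = 0.0520, 0.0810 and 0.0813), and also without a filter on low values (adjusted p = 0.123), without the variance trend (adjusted p = 0.0580), under quantile normalization (-0.31, adjusted p = 0.226) and after rescaling without Saa1 to Saa3 (-0.27, adjusted p = 0.309). C8a passed the threshold in limma without control mouse 12 (0.81, adjusted p = 0.0145), under quantile normalization (0.96, adjusted p = 0.0252) and after that rescaling (0.95, adjusted p = 0.0274).

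The C8 chains also differed within mice. The ratio of C8b to C8g was 0.366 to 0.381 after anti-CD40 and 0.0732 to 0.185 in controls, and the ratio of C8a to C8b was 1.54 to 1.94 against 0.528 to 0.970. Neither ratio overlapped between the groups, and the differences were 1.69 and 1.22 on the log2 scale (exact permutation p = 0.0238 for each, adjusted 0.0286). C8g shares its table position with Fbxw5, which overlaps it on the opposite strand, and Fbxw5 was 5.15 to 8.20 FPKM in the treated mice and 4.99 to 7.88 in controls.

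Of the other pore components, C6, which binds C5b, was lower and Hc and C9 were not called. C6 was 0.462, 2.05 and 0.996 FPKM after anti-CD40, and 2.50 to 5.74 in controls, with a median of 3.10 (limma log2 fold change of -1.70, SE 0.40, adjusted p = 0.00552). All 3 treated mice lay below the controls, but they spread widely among themselves. The deposited position of C6 stops at chr15:4804045, short of its GENCODE 3′ end (4814967), and whether reads were missed there was not tested. Hc, the gene of C5, was 153, 133 and 153 FPKM against 98.2 to 147, overlapping only with control mouse 12. It missed the threshold (0.31, limma, SE 0.13, adjusted p = 0.0712, exact permutation p = 0.0476 for this gene alone) and passed it without that mouse (0.38, adjusted p = 0.0178), under quantile normalization (0.76, adjusted p = 5.17e-04) and after rescaling without Saa1 to Saa3 (0.68, adjusted p = 8.83e-04). C9, the polymer that forms the pore, was 15.0, 26.2 and 16.7 FPKM against 17.4 to 26.8 (-0.13, SE 0.20, adjusted p = 0.629), and its sign turned without anti-CD40 mouse 2 (0.03). For C9 too, the deposited position stops short of the GENCODE 3′ end (chr15:6498476 against 6498751). The difference between C6 and C9 within mice was -1.57 on the log2 scale (exact permutation p = 0.0238, adjusted 0.0286).

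**Figure D3:**
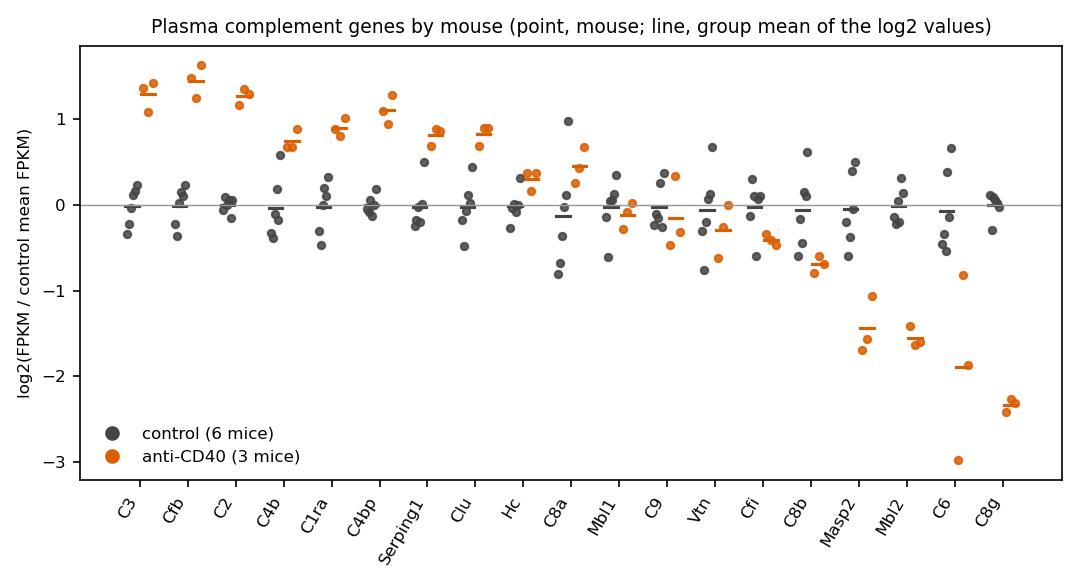
FPKM of 19 plasma complement genes in each mouse, divided by the control mean and given as log2 (vertical axis), with a point per mouse, a line for the mean of the log2 values of each group, grey for 6 controls and orange for 3 anti-CD40 mice. From C3 to Clu on the left the orange points lie above the grey ones, from Hc to Cfi in the middle they overlap, and from C8b to C8g on the right they lie below.

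Among the 8 regulators, 4 rose, 1 fell and 3 were not called. Of the plasma regulators, C4bp, Serping1 and Clu were higher. C4bp (chr1:130635921-130661618), the C4b-binding protein that breaks up the C4b and C2 convertase, was 393, 352 and 444 FPKM in mice 2, 5 and 9, and 168 to 209 in controls, with a median of 180. Serping1, the C1 inhibitor that blocks C1r, C1s and the lectin proteases, was 546, 624.8 and 613 FPKM against 285 to 480, with a median of 316. Clu, clusterin, which binds the forming pore in plasma, was 456, 528 and 529 FPKM against 203 to 386, with a median of 279. The treated mice stood above every control for each of them. C4bp rose 2.16-fold by the means (396 ± 46.3 against 184 ± 14.8, SD, n = 3 and 6), Clu 1.78-fold and Serping1 1.76-fold. The log2 fold changes in limma were 1.11 (SE 0.11, adjusted p = 2.79e-05), 0.85 (SE 0.18, adjusted p = 0.00284) and 0.83 (SE 0.16, adjusted p = 0.00202). For C4bp, the deposited position stops at chr1:130635921, short of its GENCODE 3′ end (130634773). Whether reads of C4bp were missed there was not tested.

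The other plasma regulators were not called. Cfi, factor I, the protease that inactivates C3b and C4b with C4bp as a cofactor, was 156, 149 and 143 FPKM against 131 to 245, with a median of 210. Its log2 fold change was -0.38 (limma, SE 0.18, adjusted p = 0.102), -0.50 without control mouse 8 (adjusted p = 0.00729), which was the only control below the treated mice, and 0.06 under quantile normalization. C4bp and Cfi differed within mice: the ratio of C4bp to Cfi was 2.36 to 3.11 after anti-CD40 and 0.705 to 1.28 in controls (1.49 on the log2 scale, exact permutation p = 0.0238, adjusted 0.0286). Vtn, vitronectin, an inhibitor of pore assembly, was 253, 324 and 389 FPKM against 230 to 618 and overlapped fully (-0.23, SE 0.27, adjusted p = 0.518).

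The membrane regulators went apart. Cd55, the decay-accelerating factor that dissolves C3 convertases on cells, was 7.07, 7.11 and 6.30 FPKM after anti-CD40, and 1.86 to 3.902 in controls, with a median of 2.67. Cd59a, the anchored protein that blocks insertion of C9, was 102, 101 and 103 FPKM against 135 to 182, with a median of 163. Neither overlapped, and the limma log2 fold changes were 1.29 for Cd55 (SE 0.21, adjusted p = 6.60e-04) and -0.66 for Cd59a (SE 0.12, adjusted p = 0.00114). The fall of Cd59a was no longer called under quantile normalization (-0.26, adjusted p = 0.104) or after rescaling without Saa1 to Saa3 (-0.29, adjusted p = 0.0775). Within mice the ratio of Cd55 to Cd59a was 0.0614 to 0.0701 after anti-CD40 and 0.0136 to 0.0266 in controls, a difference of 1.95 on the log2 scale (exact permutation p = 0.0238, adjusted 0.0286). Cr1l (Crry), the rodent cofactor for factor I on cells, was 26.5, 24.5 and 23.1 FPKM against 18.0 to 27.9 and was not called (0.17, SE 0.14, adjusted p = 0.348). It passed the threshold only with rescaling without Saa1 to Saa3 (0.53, adjusted p = 0.0169). The deposited position of Cr1l stops at chr1:195103788, short of its GENCODE 3′ end (195097382), and whether reads were missed there was not tested.

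All 5 receptor genes were higher after anti-CD40, and for 4 of them the means lay 11.4- to 24.3-fold apart. Itgax (chr7:128129568-128150657), the alpha chain of complement receptor 4 on dendritic cells and macrophages, was 6.44, 6.10 and 6.49 FPKM in mice 2, 5 and 9, and 0.110 to 0.404 in controls, with a median of 0.263. Itgam (chr7:128062640-128118491), the alpha chain of complement receptor 3 on neutrophils and monocytes, was 5.89, 5.05 and 5.93 FPKM against 0.310 to 0.692, with a median of 0.447. C5ar1 (chr7:16246743-16259540), a receptor of the fragment C5a, was 3.96, 3.37 and 3.05 FPKM against 0.163 to 0.318, with a median of 0.225. The lowest treated mouse exceeded the highest control for each of the 3 genes. The means differed 24.3-fold for Itgax, 14.9-fold for C5ar1 and 11.9-fold for Itgam. On the log2(FPKM + 0.1) scale, which understates the change of low genes, the differences were 4.21 (limma, SE 0.25, adjusted p = 1.20e-06), 3.44 (SE 0.19, adjusted p = 7.69e-07) and 3.35 (SE 0.22, adjusted p = 2.06e-06).

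Cr2, which encodes the C3d receptors CR1 and CR2 of B cells and follicular dendritic cells in the mouse, was 2.102, 1.75 and 1.65 FPKM after anti-CD40. In controls it was 0.01, the floor, to 0.314, with a median of 0.137 (3.00 on the log2 scale, limma, SE 0.37, adjusted p = 1.05e-04). C3ar1, the receptor of the fragment C3a, moved least of these 5 receptors: 1.41, 1.30 and 1.19 FPKM against 0.650 to 1.03, with a median of 0.839. Its log2 fold change was 0.61 (limma, SE 0.18, adjusted p = 0.0171). It was no longer called without anti-CD40 mouse 2 (0.55, adjusted p = 0.0746) or 5 (0.60, adjusted p = 0.0527), or under quantile normalization (0.26, adjusted p = 0.202). C3ar1 and C5ar1 therefore differed in response. C5ar2, another C5a receptor gene that was tested in the wider list, was not called (-0.08, limma, SE 0.20, adjusted p = 0.772). The sign of the C5ar2 value turned without anti-CD40 mouse 2 and with rescaling without Saa1 to Saa3. The ratio of C3ar1 to C5ar1 was 0.356 to 0.391 after anti-CD40 and 2.67 to 5.00 in controls (-2.83 on the log2 scale, exact permutation p = 0.0238, adjusted 0.0286). Itgam rose less than Itgax, by 0.86 on the log2 scale (ratio 0.829 to 0.915 against 0.928 to 3.20, exact permutation p = 0.0238, adjusted 0.0286).

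Leukocyte markers moved with the receptors. The 9 neutrophil markers measured summed to 4213 to 5200 FPKM after anti-CD40 and 18.3 to 156 in controls. All 7 of those that could be tested rose, and Mpo and Elane were at or near the floor. The B cell list, whose cells carry Cr2, summed to 30.9 to 46.3 against 1.90 to 7.70, and all 6 genes rose. The dendritic cell list summed to 3.53 to 4.80 against 2.11 to 3.11, with 4 of 5 genes tested higher and Cd209a at the floor in the treated mice. All 4 of those calls (Flt3, Zbtb46, Clec9a and Siglech) were lost under quantile normalization and without anti-CD40 mouse 2, with limma adjusted p values reaching 0.0524, 0.118, 0.113 and 0.153 over the mice left out. The monocyte and macrophage list rose as given above. Control mouse 4 was the highest control for the neutrophil and B cell lists, and also for Itgam and Cr2. The highest control was mouse 7 for Itgax and C5ar1, and mouse 8 for C3ar1. The part of these cells in the receptor values was not tested.

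**Figure D4:**
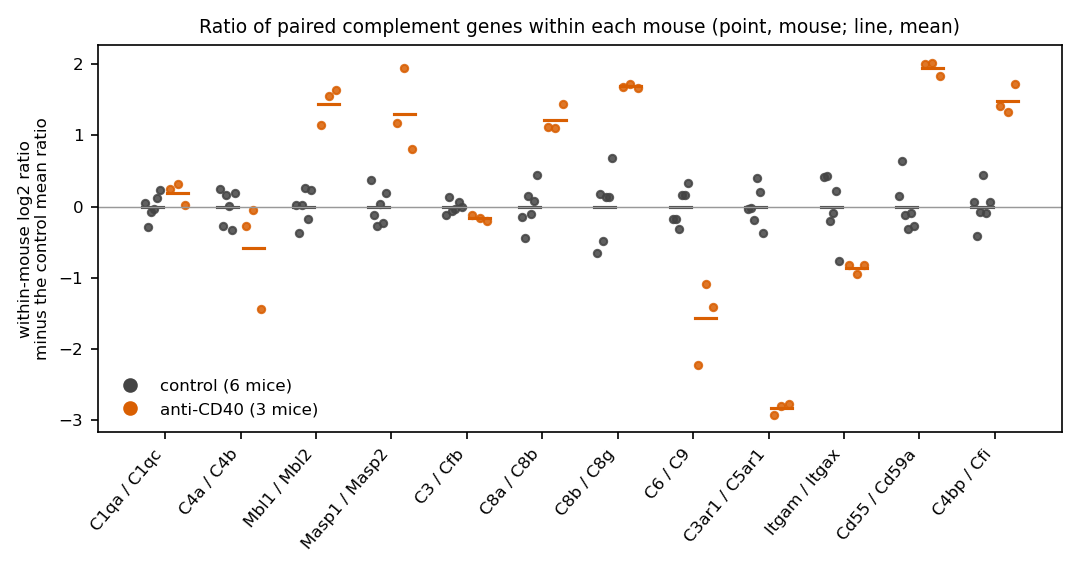
The difference in log2(FPKM + 0.1) between both genes of 12 pairs of like role, within each mouse, minus the control mean of that difference. Points are mice, lines are group means, grey is for 6 controls and orange for 3 anti-CD40 mice. The groups are apart for C8b against C8g, Mbl1 against Mbl2, C3ar1 against C5ar1 and the others that reached an exact permutation p of 0.0238 (10 of 12 pairs), and overlap for C1qa against C1qc and C4a against C4b. The share among other pairs of genes was not computed, and 45.1% of all genes tested were called.

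Beyond these genes, 27 further complement genes were listed, and 21 of them could be tested. After anti-CD40 6 rose (28.6%), where 23.5% of all genes tested were higher, and 10 fell (47.6%), where 21.7% were lower. Another 5 were not called, and the median log2 fold change of the 21 genes was -0.18. The 10 became 5 without a filter on low values or after rescaling without Saa1 to Saa3. Recognition molecules that work beside the mannose-binding lectins were among those that fell. Colec10, collectin liver 1, was 1.18, 0.787 and 1.37 FPKM after anti-CD40 and 15.4 to 20.8 in controls (limma log2 fold change of -3.98, adjusted p = 1.50e-07). Colec11, collectin kidney 1, was 8.85, 7.46 and 8.27 FPKM against 57.3 to 81.0 (-2.92, adjusted p = 2.04e-07). Fcna, ficolin A, was 29.6, 31.7 and 31.0 FPKM against 117 to 211 (-2.41, adjusted p = 3.85e-06). Vsig4, a C3b receptor of Kupffer cells that is also on the Kupffer cell list, was 0.147, 0.313 and 0.756 FPKM against 33.1 to 47.7 (-6.50, adjusted p = 3.25e-07). None of these 4 genes overlapped between the groups. Downward non-overlap was found in 7 of the 21 genes tested and in 19.6% of all genes.

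Some binding partners of complement were higher. Apcs, serum amyloid P, which binds C1q, was 1363, 1205 and 961 FPKM after anti-CD40 and 131 to 224 in controls (limma log2 fold change of 2.78, adjusted p = 4.31e-06). Ptx3, a long pentraxin of leukocytes and endothelium, was 1.71, 1.34 and 1.26 FPKM against 0.01 to 0.141 (3.14, adjusted p = 6.77e-06). Ptx3 shares its table position with Veph1, which overlaps it on the opposite strand. Crp, the remaining pentraxin on the list, was 435, 415 and 432 FPKM against 319 to 436 and was not called (0.17, adjusted p = 0.276). Crp passed the limma threshold under quantile normalization (adjusted p = 4.86e-04) and after rescaling without Saa1 to Saa3 (0.54, adjusted p = 0.00169). Itgb2, the beta chain shared by complement receptors 3 and 4, was 10.3, 8.79 and 10.2 FPKM against 0.716 to 2.19 (2.99, adjusted p = 2.07e-05). Cd93, once described as a C1q receptor, rose by 2.89 (adjusted p = 1.50e-07), and C1s1, the protease that C1r activates, by 0.98 (adjusted p = 1.64e-05). C1s1 ranged from 83.96 to 94.9 FPKM after anti-CD40 and from 41.3 to 46.5 in controls.

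Smaller changes were found in other genes of this wider list. In limma, Cpn1 and Cpn2, the subunits of the carboxypeptidase that inactivates C3a and C5a, fell by 0.96 (adjusted p = 0.0176) and 0.58 (adjusted p = 0.0225) on the log2 scale. Cd59b fell by 1.01 (adjusted p = 0.0347) and the C1r-like protease C1rl by 0.63 (adjusted p = 0.0470). For C1rl, Cd59b and Cpn1 a treated mouse overlapped a control. The calls of C1rl, Cd59b, Cpn1 and Cpn2 were lost without anti-CD40 mouse 2 and without mouse 5, with adjusted p values reaching 0.168, 0.162, 0.0830 and 0.0930 over the mice left out. C1rl also lost its call without anti-CD40 mouse 9, and C1rl and Cd59b without control mice 3, 7, 8, 11 or 12. The plot of the wider list shows these among the smallest changes called.

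**Figure D5:**
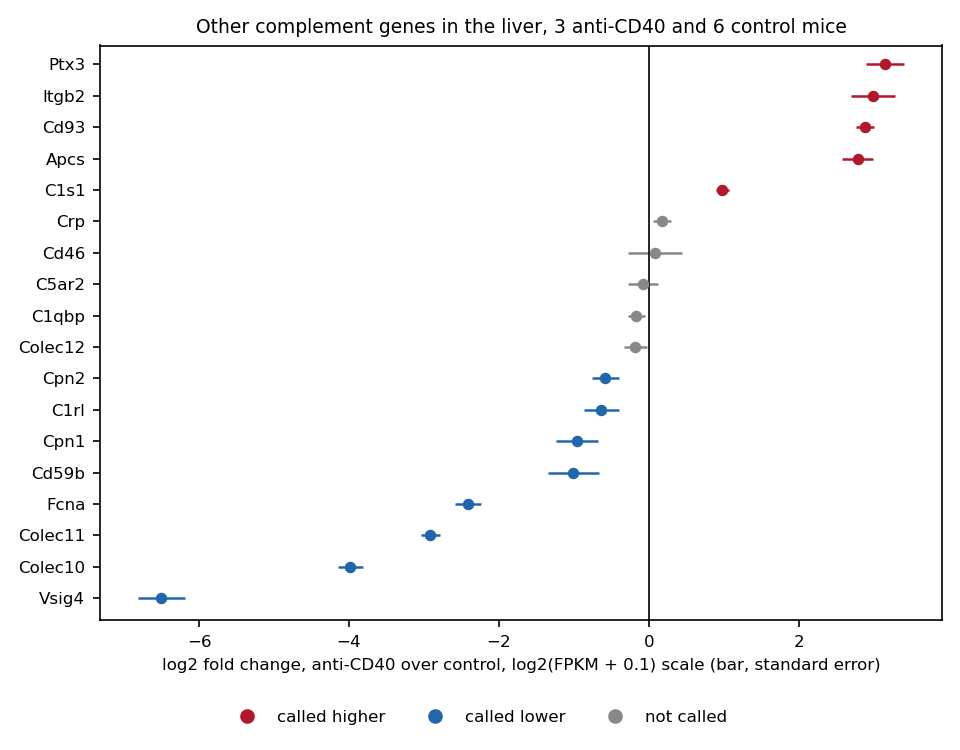
The log2 fold change of 18 further complement genes (horizontal axis, anti-CD40 over control on the log2(FPKM + 0.1) scale), with bars for the standard error and colour for the call. Vsig4, Colec10, Colec11 and Fcna lie from -6.50 to -2.41, and Apcs, Cd93, Itgb2 and Ptx3 lie from 2.78 to 3.14.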

How the data were processed

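Liver RNA of 9 mice, 3 given anti-CD40 and 6 controls, was sequenced by the authors from the 3′ end (QuantSeq). Per the labels and the methods, the authors aligned reads to mm10 with STAR and computed values with Cufflinks and CuffDiff. The authors deposited FPKM, already scaled between mice (median ratios of 1.004 to 1.010). The annotation, table filter and strand setting are not given in the sources used here. The 15 genes with a failed estimate were left out.

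Complement genes, the further list and the marker lists were chosen with earlier results of these data known. Every complement gene was named, and of the further list every gene called except 3 that are not reported here, though they count in its totals. The deposited FPKM were tested as log2(FPKM + 0.1) in 13807 genes with a mean of at least 0.1, by the moderated linear model of limma (version 3.58.1, R 4.3.3; 2-sided, eBayes with a trend) and Benjamini-Hochberg adjustment at 0.05. All genes of the table and all 9 mice entered the fit. Single genes and within-mouse differences of 12 pairs were tested by exact permutation over the 84 splits of the mice. Scripts ran in Python 3.11.15 and were tested on simulated data.

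Total read counts per mouse were not used here. Of 3804 genes below 1 FPKM, 76.7% had values that were whole multiples of 1 read (tolerance 0.12 reads), against at most 2.71% when values were dealt to other mice. This gave relative depths but no counts for highly expressed genes. P-values cover the spread between these mice. Upstream sequences are from RefSeq. Alternatives changed the pseudocount, the filter, the scaling, the variance model, or left out 1 mouse.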

Additional observations from a re-analysis of the deposited data

Results flagged for a closer look

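A single control mouse stood far from the other 5 for 4 of the 67 items tested for this. The items were the tested complement genes, those of the further list and the 12 within-mouse pair differences. Chance alone would give about 3.35 (gap to the nearest mouse as a share of the range above 0.625). For C8g, control mouse 4 was lowest at 682 FPKM, with a share of 0.663. For Serping1, control mouse 12 was highest at 480 FPKM, with a share of 0.661. For Colec11, control mouse 4 was highest at 81.0 FPKM, with a share of 0.817. For Cd46, control mouse 8 was at the floor of 0.01 FPKM, with a share of 0.677, but this was 0 reads against 2 or 3 in the other controls. Anti-CD40 mouse 2 also had 0 reads. The anti-CD40 group, with 3 mice, was not tested in this way.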

How the results depend on the processing

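Wherever they were tested under 18 alternatives, all 24 called complement genes kept their direction, and 21 kept their call. The exceptions were C8b, Cd59a and C3ar1. With a minimum mean of 1 FPKM, Cr2 and C3ar1 were not tested, and 13 complement genes were called higher. The number of complement genes called higher, 15, was 9 with a 2-fold minimum added and 14 to 17 without 1 mouse. The number called lower, 9, was 8 to 10 without 1 mouse. In the further list, the 10 genes called lower became 5 without a filter on low values, 5 after rescaling without Saa1 to Saa3, and 5 to 10 without 1 mouse (6 without anti-CD40 mouse 2 and 5 without mouse 5). The 6 called higher became 5 to 6 without 1 mouse. Over all genes, 3240 were higher and 2990 lower, 2539 to 3539 and 2336 to 3269 without 1 mouse, and 5592 higher and 1649 lower after rescaling without Saa1 to Saa3. That rescaling moved the median log2 change of all genes to 0.35 and of the complement genes to 0.61. Some complement genes that were not called turned sign: under quantile normalization C4a (-0.040), Mbl1 (0.35), C9 (0.0051), Cfi (0.059) and Vtn (0.21), after the rescaling Mbl1 (0.27), Masp1 (0.23), C9 (0.23) and Vtn (0.14), without anti-CD40 mouse 5 C4a (-0.037), without anti-CD40 mouse 2 Masp1 (0.12) and C9 (0.030), and without control mouse 8 or 12 Masp1 (0.022 and 0.073). Without 1 mouse at a time, C4a ran from -0.037 to 0.55, Masp1 from -0.33 to 0.12 and C9 from -0.37 to 0.030. The cause of these changes was not tested. The pairs with a difference, 10 of 12, numbered 10 to 11. Without an anti-CD40 mouse, 28 splits remain and the smallest exact p is 0.0714, so no pair can pass. No paired analysis was possible because the mice of the groups share no replicate numbers. Depth limits C7 and genes below 0.1 FPKM, where 1 read decides the value.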
